A study of Mus musculus with 2 samples.

Results

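Proliferating neutrophil precursors were studied in pancreatic tumors of mice as the cells that carried granule protein transcripts and cell cycle transcripts together. A droplet barcode was a filtered cell with at least 1000 unique molecular identifiers (UMIs, each standing for 1 captured transcript) from at least 200 genes, of which mitochondrial transcripts gave no more than 20%. The members were chosen by these counts and those of the following genes. A filtered cell was a dividing precursor when Camp, Ngp, Ltf, Fcnb, Elane and Mpo made up at least 1% of its UMIs and when Mki67, Top2a, Ube2c, Birc5 and Stmn1 gave at least 5 UMIs. Cells with more than 2 UMIs of Cd3e, Cd79a and C1qa, which mark T cells, B cells and macrophages, were left out. In all, 1349 of 14022 filtered cells were dividing precursors, of which 478 came from the PBS library and 871 from the cmExoaCD11b library.

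The tumors grew from K210 cells, a line from the tumor of a C57BL/6J mouse with Pdx1-Cre and Trp53 fl/fl, placed in the pancreas of male C57BL/6J mice of 5 to 6 weeks. One group received PBS. The other received cmExoaCD11b, exosomes of mouse embryonic fibroblasts that hold cGAMP, an activator of STING (5 µg per mouse), together with mRNA for IL-12 and have an antibody to CD11b on their surface. At 48 h, cells of the tumors of 3 mice per group were combined into 1 droplet library. The paper describes them as pooled immune cells, and no sort is named in its methods. With 1 library per group no test between the treatments was possible.

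Neutrophils are made in the bone marrow, in which myeloblasts and promyelocytes fill azurophil granules with the proteases elastase, proteinase 3 and cathepsin G and with myeloperoxidase. Myelocytes then make the proteins of specific granules, such as lactoferrin and cathelicidin, and are the last stage that divides. Gelatinase and the receptors for chemokines and formyl peptides follow in cells that have left the cell cycle. CD11b, the protein to which the antibody of cmExoaCD11b binds, is the integrin encoded by Itgam and is carried by neutrophils and other myeloid cells.

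Dividing precursors made up a larger share of the filtered cells after cmExoaCD11b. They were 6.92% of cells in PBS (exact Clopper-Pearson 95% interval 6.34 to 7.55) and 12.2% in cmExoaCD11b (11.5 to 13.02), a ratio of 1.77 (exact conditional 95% interval 1.58 to 1.98). These and all later intervals cover counting error only, since the spread between mice or between libraries cannot be seen with 1 pool per group. Cells that passed the limit for granule genes, whether or not they were dividing, were 18.6% of cells in PBS and 29.5% in cmExoaCD11b, a ratio of 1.58. Cells of any kind with at least 5 cycling UMIs were 10.1% and 17.2%, a ratio of 1.71.

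The larger share was thus found for precursors and for cycling cells alike, and the share of precursors that were dividing differed less. Among cells past the granule gene limit, dividing precursors were 37.2% in PBS and 41.5% in cmExoaCD11b, and the interval of this ratio (1.12, 0.998 to 1.251) included 1. Among cells with at least 5 cycling UMIs they were 68.9% and 71.1%, a ratio of 1.03 whose interval (0.922 to 1.16) also included 1. Most cells past this limit were thus neutrophil precursors in either library. The limit is an absolute count that dividing cells of less depth reach less often, and these 2 shares were not matched for depth. Non-dividing precursors, with the same granule gene limit and 0 cycling UMIs, were 7.78% and 10.4% of filtered cells, a ratio of 1.33. Mature neutrophils, with fewer granule transcripts and at least 2% of UMIs from Retnlg, Mmp8, S100a8, S100a9 and Csf3r, were 24.8% and 21.8%, a ratio of 0.879. When every cell was first thinned to 1000 UMIs and gated at that depth, 260 and 493 cells passed, a ratio of 1.84.

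**Figure D1:**
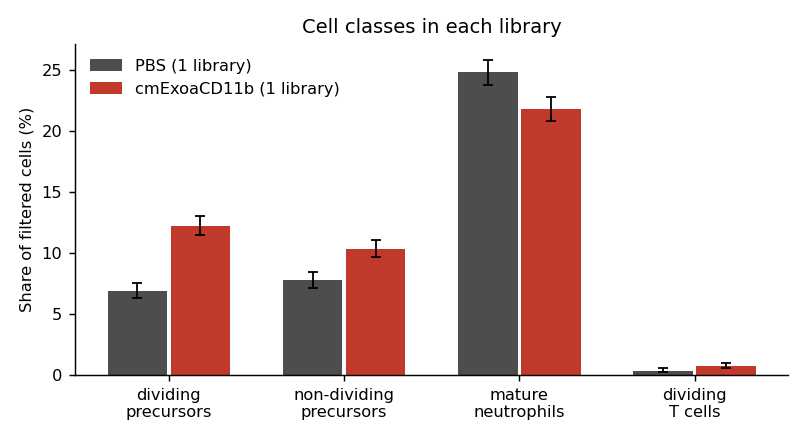
Share of filtered cells (percent, vertical axis) in each gate of the neutrophil line and in dividing T cells, by library, with exact Clopper-Pearson 95% intervals as bars. Dividing precursors stand at 6.92% in PBS and 12.2% in cmExoaCD11b, whereas mature neutrophils stand at 24.8% and 21.8%.

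The limits of the gate cut through few cells. In each library 4 members lay less than 0.25 percentage points above the limit of 1% granule transcripts, and 2 cells in PBS and 5 in cmExoaCD11b lay as close under it. Exactly 5 cycling UMIs were found in 14 and 28 members, and 13 and 35 cells missed the gate with exactly 4. The genes of T cells, B cells and macrophages removed 28 cells in PBS and 43 in cmExoaCD11b that passed the other limits. The libraries shared 15 barcodes among their filtered cells and none among the members.

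Members had deeper profiles than the other cells of the line. They held 13028037 UMIs in PBS and 25225648 in cmExoaCD11b, which was 23.0% and 35.4% of the UMIs of all filtered cells. The median member had 25219 UMIs in PBS and 24493 in cmExoaCD11b, against 12373 and 10421 in non-dividing precursors and 3281 and 3057.5 in mature neutrophils. Over all filtered cells the medians were 3787.5 and 4817 UMIs. Members thus had similar depth in both libraries, unlike the filtered cells as a whole.

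The genes that chose the members are given as a description. Levels are UMIs summed over members and scaled to 1000000 (CPM), a scale that is set by the number of transcripts captured and not by gene length. Camp, which encodes cathelicidin, stood at 36335 CPM in PBS and 29661 in cmExoaCD11b, and Ngp, the neutrophilic granule protein, at 35845 and 30586. Every member held UMIs of both. Ltf, which encodes lactoferrin, stood at 5118 and 5089.7 CPM, and Fcnb, which encodes ficolin B, at 826 and 752. Elane, the gene of neutrophil elastase, stood at 3117 and 3321 CPM, and Mpo, that of myeloperoxidase, at 1336 and 1252. Elane was unevenly spread: the median member had 28.1 CPM in PBS and 39.8 in cmExoaCD11b, whereas the 90th percentile was at 9537 and 9318. Elane UMIs were found in 52.7% and 56.7% of members, and in 25.1% and 27.7% after thinning to 1000 UMIs. In dividing T cells, which should lack the gene, the shares were 22.2% and 20% unthinned, at median depths of 22030 and 11227 UMIs, and 7.41% and 3.64% thinned.

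The cycling genes of the rule were close in both libraries. Mki67, which encodes the Ki-67 antigen, stood at 252 CPM in PBS and 316 in cmExoaCD11b, Top2a (topoisomerase II alpha) at 214 and 230.0, and Stmn1 (stathmin) at 640.1 and 665. Ube2c, which encodes a ubiquitin-conjugating enzyme of the anaphase-promoting complex, stood at 502 and 416 CPM. Mki67 had UMIs in 94.1% and 97.6% of members, Ube2c in 88.1% and 86.5%, and Fcnb in 92.3% and 90.7%. The 6 marker genes Camp, Ngp, Fcnb, Elane, Mki67 and Ube2c all belong to the rule, so their presence was set by the gate and is no check of the label.

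The label was checked by genes outside the rule, among which neutrophil genes were abundant in both libraries. The alarmins S100a9 and S100a8 gave the most UMIs of all genes, at 110745 and 94388 CPM for S100a9 and 77648 and 66225 for S100a8. Lcn2, which encodes the specific granule protein lipocalin 2, stood at 15294 and 15048 CPM. Cebpe, the transcription factor of specific granule genes, stood at 383 and 352 CPM, and Spi1, which encodes PU.1, at 517 and 554. Itgam, the gene of CD11b, stood at 281 and 347 CPM. It was found in 467 of 478 members in PBS and 841 of 871 in cmExoaCD11b.

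The members ranged from cells rich in azurophil granule transcripts to cells rich in specific granule transcripts, and were split by this balance. A member was called early where Elane, Mpo, Prtn3 and Ctsg together gave more UMIs than Camp, Ngp, Ltf and Lcn2, middle where the former gave at least 10% of the sum of both, and late otherwise. Early members were 52 in PBS (10.9%, interval 8.23 to 14.0) and 86 in cmExoaCD11b (9.87%, 7.97 to 12.1). Middle members were 28 (5.86%) and 71 (8.15%), and late members 398 (83.3%) and 714 (82.0%). These shares are ranges cut from a continuous score and not cell types, and 8 and 18 members lay near the limit between early and the rest, with 40% to 60% azurophil UMIs. The stage mix of the treated library lay within the intervals of the PBS library for all 3 shares.

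Regulators and receptors that the split did not use differed along the same order in both libraries. Cebpa, which drives the first step of granulopoiesis, stood at 76.7 CPM in early, 25.7 in middle and 5.84 in late members of PBS, and at 55.7, 17.8 and 4.89 in cmExoaCD11b. Gfi1, a repressor needed for neutrophil fate, stood at 129, 51.4 and 20.1 CPM in PBS and at 113, 29.6 and 12.9 in cmExoaCD11b. Kit, the stem cell factor receptor, stood at 26.6, 9.64 and 2.67 CPM in PBS and at 27.1, 7.41 and 1.98 in cmExoaCD11b. All 3 were highest in early and lowest in late members of both libraries. Ly6g, the neutrophil surface antigen, had the opposite order in cmExoaCD11b, at 9.12, 68.0 and 234 CPM, and in PBS it stood at 6.01, 2.14 and 235. Early members were also the deepest, with medians of 39509 UMIs in PBS and 45958.5 in cmExoaCD11b, against 23720.5 and 22458 in late members.

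S phase transcripts prevailed in a smaller share of late members than of early members in both libraries. By phase lists without the genes of the rule, 10.0% of members in PBS and 8.15% in cmExoaCD11b held more UMIs of S phase genes than of G2 and M phase genes. Within stages the shares were 38.5% and 34.9% for early members, 32.1% and 15.5% for middle members and 4.77% and 4.20% for late members. A total of 82 and 138 members lay near the limit, with 40% to 60% S phase UMIs. The gate itself required at least 5 UMIs of cycling genes, an absolute count, and late members were shallower than early members. The shares by phase therefore hold for cells that passed this limit, and its effect within stages was not tested. The intervals of the libraries overlapped in every stage, and for middle members they ran from 15.9% to 52.4% in PBS and from 7.996% to 26.0% in cmExoaCD11b.

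**Figure D2:**
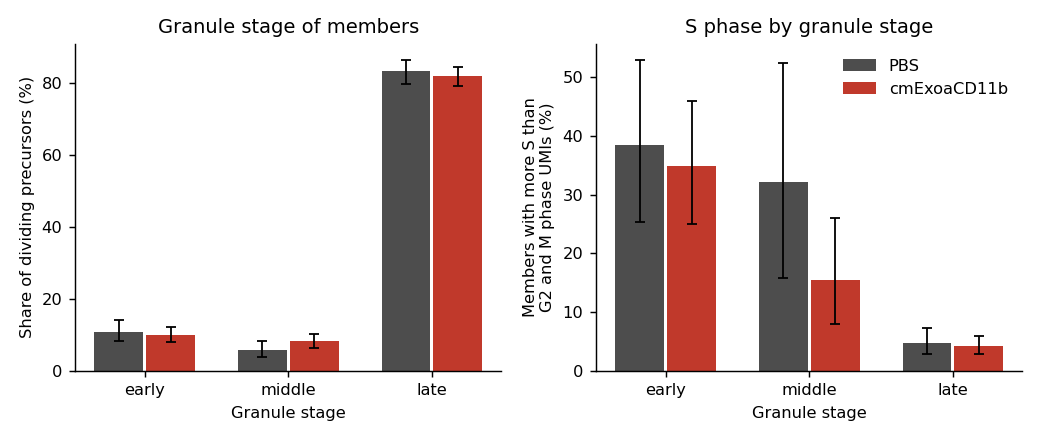
Percent of members in the early, middle and late range of granule gene balance, by library, with exact Clopper-Pearson 95% intervals, and the percent of members of each range with more S phase than G2 and M phase UMIs. Late members make up 83.3% and 82.0%, and S phase shares are higher in early than in late members of both libraries.

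Transcript levels of members were then compared between the libraries across genes. Genes with at least 50 UMIs over both libraries, 10761 in number, were compared by the ratio of CPM with 1 UMI added, and a gene was counted where it differed at least 2-fold. Of these, 410 were higher in cmExoaCD11b, a background of 3.81%, and 74 were lower, a background of 0.688%. The median gene had a log2 ratio of 0.16, so the values of gene lists are read beside that shift. With size factors from the median of ratios the median moved to -0.01, and 301 genes were higher and 111 lower. Most of the higher genes were spread over many cells, and 329 of the 410 had under 10% of their treated UMIs in any 1 member. Of the 74 lower genes, 26 did so in PBS, and 17 drew over 50% of their UMIs from 1 member.

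Interferon-stimulated genes, which encode antiviral and antigen presentation proteins, were higher as a group in the treated members. The list held 38 genes, of which 36 could be compared, and 32 of these were at least 2-fold higher and none lower, beside 3.81% of all genes. Its median log2 ratio was 1.82, beside 0.16 over all genes. Summed over the list, members had 1493 CPM in PBS and 3045 in cmExoaCD11b, a ratio of 2.04 (2.01 to 2.07). None of the 32 genes drew more than 10.2% of its treated UMIs from 1 member.

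Isg15, which encodes a ubiquitin-like protein, stood at 38.1 CPM in PBS and 171 in cmExoaCD11b, a ratio of 4.48 (4.09 to 4.93), with UMIs in 110 and 490 members. Ifit1, an antiviral RNA-binding protein, stood at 11.7 and 65.5 CPM, a ratio of 5.58 (4.73 to 6.63). Ifit3 of the same family stood at 1.84 and 20.7 CPM, in 18 and 132 members, a ratio of 11.2 (7.45 to 17.7). Its near-identical copy Ifit3b had 4 UMIs in PBS and 197 in cmExoaCD11b, and how reads were split between the copies is uncertain. These low levels in PBS rest on few UMIs, as the width of the intervals shows.

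Sensors, enzymes and transcription factors of the response behaved alike. Oas3, a synthetase activated by double-stranded RNA, stood at 3.76 CPM in PBS and 26.0 in cmExoaCD11b, a ratio of 6.92 (5.18 to 9.46). Slfn5 stood at 3.53 and 28.8 CPM, Zbp1, a sensor of Z-form nucleic acids, at 4.30 and 24.2, and Rsad2, which encodes viperin, at 32.6 and 103. Irf7, the transcription factor that amplifies type I interferon, stood at 6.98 and 25.1 CPM (ratio 3.60, 2.88 to 4.53), and Stat2 of the receptor pathway at 7.37 and 26.2.

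Of the 36 genes, 4 did not reach 2-fold. Ifitm3, an antiviral membrane protein that was already abundant, stood at 530.3 CPM in PBS and 973 in cmExoaCD11b, and Slfn4 at 324 and 563. Samd9l stood at 58.7 and 101 CPM. The chemokine gene Cxcl10 was the only one with a ratio under 1, at 236 and 178 CPM (0.753, 0.719 to 0.788). It was lower in early members, at 629.8 and 283 CPM, and in middle members, at 539.8 and 221, but not in late members, at 130.02 and 147. In mature neutrophils Cxcl10 stood at 153 CPM in PBS and 596 in cmExoaCD11b.

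**Figure D3:**
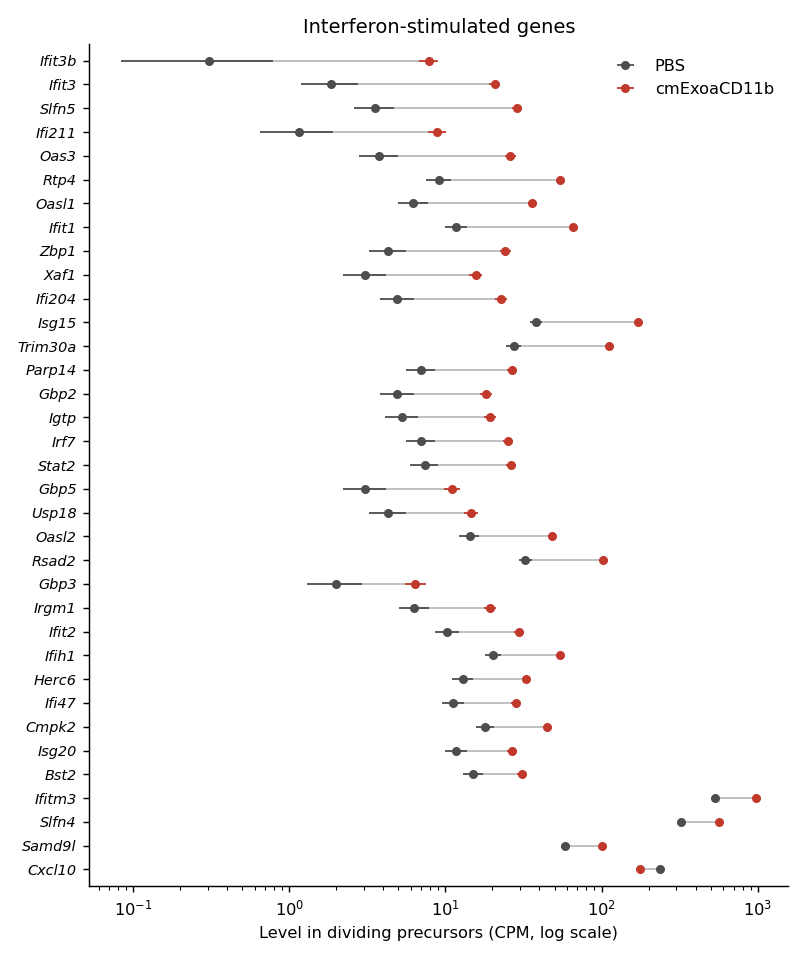
Levels of interferon-stimulated genes in members (CPM, log axis) in PBS and in cmExoaCD11b, with exact Poisson 95% intervals as bars. Each gene shown is higher in cmExoaCD11b except Cxcl10, at 236 and 178 CPM.

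Counted over the whole list, the difference lay in many members and not in a few cells. After thinning each member to 1000 UMIs, members held 1.70 ± 2.21 UMIs of the list in PBS (mean and SD over 478 cells) and 3.12 ± 3.21 in cmExoaCD11b (871 cells). The share with none was 27.2% in PBS and 15.7% in cmExoaCD11b, and 24.2% of treated members exceeded the 90th percentile of PBS. The list includes the abundant Ifitm3 and Slfn4, which did not reach 2-fold, so these counts are not of the higher genes alone. A UMI of Isg15 was found in 2.93% and 13.2% of thinned members. Without thinning, Isg15 was found in 23.0% and 56.3% of members, Irf7 in 14.0% and 37.8%, and Ifit3 in 3.77% and 15.2%. The distributions still overlapped widely, since the medians were 1 and 2 UMIs.

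The difference was found in each maturation range. Of all genes compared, 2.04% were at least 2-fold higher and 0.424% lower in early members, 4.76% and 0.962% in middle members, and 4.56% and 0.759% in late members. In early members 17 of 26 genes were at least 2-fold higher and 1 lower, with a median log2 ratio of 1.22 and sums of 1078 and 1419 CPM, of which Cxcl10 gave 629.8 and 283. In middle members 19 of 28 were higher, with a median of 1.51 and sums of 1275 and 2349 CPM. In late members 32 of 36 were higher, with a median of 1.90 and sums of 1595 and 3521 CPM. Whether the ranges differ in their response was not tested. The groups of genes compared also differ, because fewer genes reached 50 UMIs in the smaller ranges.

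The same list was followed into the other cells of the line, in which 3.83% of all genes were at least 2-fold higher and 0.947% lower for non-dividing precursors, and 6.22% and 3.81% for mature neutrophils. In non-dividing precursors 32 of 36 genes were higher, with sums of 2499.7 and 6102 CPM and a summed ratio of 2.44. In mature neutrophils 33 of 36 were higher, with sums of 4377 and 12400 CPM and a summed ratio of 2.83. In dividing T cells, with a background of 13.9% higher and 5.89% lower, 23 of 30 were higher. In both libraries the summed level within the neutrophil line was lowest in dividing precursors, next in non-dividing precursors and highest in mature neutrophils. Droplets with at most 100 UMIs, which hold free RNA, had 3329 and 6477 CPM of the list. The share of free RNA in members was put at 0.763% in PBS and 1.34% in cmExoaCD11b, and after its subtraction 31 of 36 genes were higher with a median log2 ratio of 1.81, beside 3.81% of all genes higher and 0.743% lower.

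**Figure D4:**
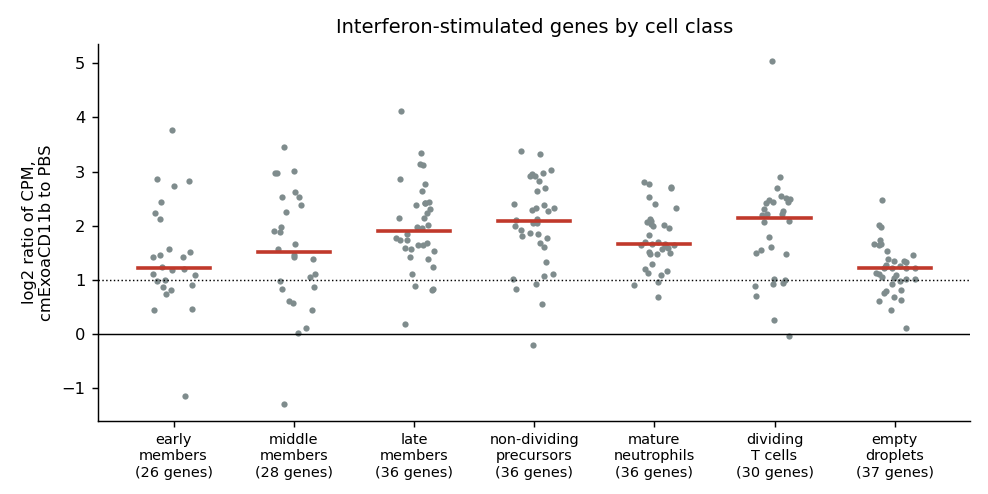
Log2 ratio of CPM in cmExoaCD11b to PBS for each interferon-stimulated gene with at least 50 UMIs over both libraries (points) and the median (red line), in early, middle and late members and in the other cell classes and empty droplets, with lines at 0 and at the 2-fold limit. The medians are 1.22 in early, 1.51 in middle and 1.90 in late members, 2.08 in non-dividing precursors and 1.65 in mature neutrophils.

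Promoters of these genes were searched on both strands for the letters GAAA, then 2 bases of any kind, then GAAA again, with overlaps allowed. This is the form of an interferon-stimulated response element. Promoters were the 250 bases before each start in RefSeq (GRCm38.p6), and 30 of the 36 genes had an entry. The motif was present for 17 of 30 (56.7%), beside 936 of 27025 genes in the whole table (3.46%) and 295 of 8445 genes compared in members (3.49%). Among those at least 2-fold higher it was present for 16 of 26, and among the others for 1 of 4. Of the granule genes it was present for 1 of 7 azurophil, 1 of 11 specific and none of 12 late genes. A match is a description of the letters and not of a bound site. The promoters of Isg15, Ifit3 and Oas3 are shown as genes with large ratios and that of Cxcl10 as the gene that was lower, with the matching letters in capitals, read 5′ to 3′ along the strand of the gene. They lie at chr4:156200819-156201068 on the minus strand for Isg15, chr19:34583279-34583528 on the plus strand for Ifit3, chr5:120777660-120777909 on the minus strand for Oas3 and chr5:92348890-92349139 on the minus strand for Cxcl10.
Isg15: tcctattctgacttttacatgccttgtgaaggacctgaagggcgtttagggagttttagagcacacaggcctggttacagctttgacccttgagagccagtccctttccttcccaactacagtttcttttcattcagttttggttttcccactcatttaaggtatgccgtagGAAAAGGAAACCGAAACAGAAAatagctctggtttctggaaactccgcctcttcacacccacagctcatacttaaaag
Ifit3: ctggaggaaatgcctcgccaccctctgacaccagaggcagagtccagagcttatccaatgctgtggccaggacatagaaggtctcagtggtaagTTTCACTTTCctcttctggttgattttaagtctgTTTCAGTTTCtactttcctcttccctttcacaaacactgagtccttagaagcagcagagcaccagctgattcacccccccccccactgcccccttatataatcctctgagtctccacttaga
Oas3: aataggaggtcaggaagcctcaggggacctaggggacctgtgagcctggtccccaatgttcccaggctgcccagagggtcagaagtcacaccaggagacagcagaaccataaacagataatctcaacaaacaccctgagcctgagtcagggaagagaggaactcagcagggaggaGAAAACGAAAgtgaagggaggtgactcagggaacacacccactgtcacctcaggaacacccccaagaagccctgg
Cxcl10: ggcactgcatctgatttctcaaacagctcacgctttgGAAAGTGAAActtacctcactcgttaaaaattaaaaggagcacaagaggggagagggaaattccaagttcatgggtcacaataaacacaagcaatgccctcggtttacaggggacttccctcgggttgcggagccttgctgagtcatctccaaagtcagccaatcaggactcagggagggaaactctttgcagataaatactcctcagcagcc
Isg15 had 3 overlapping matches that began 78 to 66 bases before the start, Ifit3 had 2 at 156 and 122 bases, and Oas3 had 1 at 75 bases. Cxcl10 also had 1, at 213 bases, so presence of the letters did not separate it from the genes that were higher.

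Several genes of the pathways that the cargo addresses gave few UMIs in members. Of the STING list, 2 of 10 genes compared were at least 2-fold higher, Ifnb1 and Tmem173, beside 3.81% of all genes. Tmem173, which encodes STING itself, stood at 2.38 CPM in PBS and 5.27 in cmExoaCD11b, with UMIs in 26 and 92 members. Cgas, the DNA sensor that makes cGAMP, stood at 24.0 and 35.8 CPM, Tbk1, its downstream kinase, at 54.6 and 61.0, and Irf3 at 12.7 and 14.7. Ifnar1 and Ifnar2, the receptor chains for type I interferon, stood at 14.4 and 20.3 CPM and at 116 and 141. Ifnb1 had 3 UMIs in PBS and 131 in cmExoaCD11b, of which 75.6% came from 1 of 21 members.

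Of the IL-12 and interferon gamma list, 2 of 7 genes were higher, beside 3.81% of all genes. Ifng stood at 0.69 CPM in PBS and 5.19 in cmExoaCD11b, in 6 and 35 members, and Il12rb2, a chain of the IL-12 receptor, at 0.84 and 2.42. Markers of T cells and of NK cells, which express both genes, were also higher in these members, with summed ratios of 2.58 and 3.64, and their part in these values was not tested. Il12a, a subunit of IL-12, stood at 7.37 and 4.92 CPM. Ifngr1, a chain of the interferon gamma receptor, stood at 96.3 and 127 CPM, and Ifngr2 at 33.4 and 35.995. The cytokine genes thus rested on few UMIs, whereas receptor transcripts were found in most members for Ifngr1, in 351 and 689.

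Of 9 antigen presentation genes of class I, 1 was at least 2-fold higher, beside 3.81% of all genes. The median log2 ratio of the list was 0.46, beside 0.16 over all genes. Nlrc5, the activator of these genes, stood at 4.14 and 13.2 CPM, a ratio of 3.18 (2.38 to 4.33). The heavy chain gene H2-K1 stood at 409.7 and 597 CPM, B2m (beta-2 microglobulin) at 776 and 1096, and the peptide transporter gene Tap1 at 29.2 and 56.2.

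Granule genes were compared by the order in which they are made. Elane and Mpo of the azurophil list and Camp, Ngp, Ltf and Fcnb of the specific granule list belong to the rule, so their values are a description. Of the 7 azurophil genes none differed 2-fold, with a median log2 ratio of 0.08 and sums of 11399 CPM in PBS and 11943 in cmExoaCD11b. The 5 outside the rule had a median of 0.08 and sums of 6945 and 7370.3 CPM. Prtn3, which encodes proteinase 3, stood at 2609 and 2789 CPM, and Ctsg, which encodes cathepsin G, at 1017 and 1045. Of the 13 specific granule genes none differed 2-fold either, with a median of -0.02 and sums of 116542 and 106560 CPM. The 9 outside the rule had a median of 0.07 and sums of 38419 and 40472 CPM, so the lower sum came from the genes of the rule. Among the 9, Chil3, a chitinase-like lectin, stood at 6576 and 9629 CPM, a ratio of 1.46, and Wfdc21 at 3308 and 2542, a ratio of 0.768. Olfm4 stood at 39.8 and 73.3 CPM and was found in 18 and 68 members.

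Among the granule lists, that of gelatinase granule and late neutrophil genes had the highest median log2 ratio. Of 14 gelatinase granule and late neutrophil genes 4 were at least 2-fold higher and none lower, beside 3.81% and 0.688% of all genes, with a median log2 ratio of 0.69 and sums of 4772 and 6865 CPM (ratio 1.44, 1.43 to 1.45). Mmp8, neutrophil collagenase, stood at 67.2 CPM in PBS and 225 in cmExoaCD11b, a ratio of 3.35 (3.12 to 3.60), in 116 and 394 members. Cxcr2, the chemokine receptor with which neutrophils leave the marrow, stood at 52.3 and 152 CPM, a ratio of 2.90 (2.68 to 3.16), in 261 and 711 members. Retnlg, a resistin-like protein, stood at 941 and 2230.0 CPM, and the formyl peptide receptor gene Fpr2 at 57.5 and 132. The 4 genes are not all of 1 kind, and others of the list were close in the libraries. Ly6g stood at 183 and 178 CPM, S100a11 at 1724 and 1842, and Slpi, a protease inhibitor, at 521 and 468.

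Mmp8 and Cxcr2 were also compared within the maturation ranges. Mmp8 stood at 13.03 and 30.3 CPM in early members, 7.50 and 136 in middle members and 83.4 and 283 in late members. Cxcr2 stood at 16.5 and 25.4, 22.5 and 112, and 62.1 and 186 CPM in the same order. Both were higher in cmExoaCD11b in each range, and the middle range of PBS rests on 28 cells. In non-dividing precursors, where the late genes are abundant, Mmp8 stood at 1209 and 1624 CPM. Of the 14 genes 2 were at least 2-fold higher in non-dividing precursors (median 0.52, lowest -0.25), beside 3.83% of all genes. In mature neutrophils, whose gate used Retnlg and Mmp8, 1 was higher (median 0.57, lowest -0.71), beside 6.22%.

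Transcription factors of granulopoiesis were close in the libraries. None of 15 differed 2-fold, with a median log2 ratio of -0.01. Cebpe stood at 383 CPM in PBS and 352 in cmExoaCD11b, Gfi1 at 39.0 and 31.0, and Myb, which holds progenitors in cycle, at 49.4 and 43.8. Myc, at 15.04 and 28.7 CPM, and Id2, an inhibitor of helix-loop-helix factors, at 182 and 339, had the largest ratios of the list, at 1.91 and 1.87. Among 8 progenitor genes compared, Ly6a, which encodes Sca-1 and is itself raised by interferon in many cells, was the one past 2-fold, at 1.38 and 10.5 CPM, beside 3.81% of all genes that were higher. Kit stood at 6.83 and 6.66 CPM.

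Cell cycle genes were also close in the libraries. None of 39 S phase genes and none of 46 G2 and M phase genes differed 2-fold, with medians of 0.08 and 0.03. The S phase genes summed to 2675 and 2809.8 CPM and the G2 and M phase genes to 9676 and 9389. Among genes of G1 and cell cycle exit, Cdkn1a, which encodes the inhibitor p21, stood at 168 and 113 CPM, and Ccnd2, which encodes cyclin D2, at 14.9 and 26.8. Ribosomal protein genes, 81 in number, had a median of -0.11 and none past 2-fold.

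Many histone genes stood lower in the treated members. Of 71 compared 12 were at least 2-fold lower and none higher, beside 0.688% of all genes, with a median log2 ratio of -0.50 and sums of 16789 and 13628 CPM. The 12 were all among the 61 genes of the replication-linked clusters, of which 50 had ratios under 1 and which summed to 3026 and 2206 CPM. Hist1h2bj stood at 153 and 42.4 CPM, Hist1h2bk at 44.8 and 14.98, and Hist1h1d, a linker histone, at 163 and 80.4. The replacement histone gene H3f3b, made throughout the cycle, stood at 7419 and 5378 CPM, a ratio of 0.725. In early members the list had a median of 0.08. There 4 genes passed the limit each way, beside 2.04% of all genes higher and 0.424% lower. In late members 15 of 68 were lower, beside 0.759% of all genes, with a median of -0.60. Replication-linked histone mRNAs mostly lack poly(A) tails, and the libraries were made from polyA RNA, so these values come from the part of the transcripts that was captured.

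**Figure D5:**
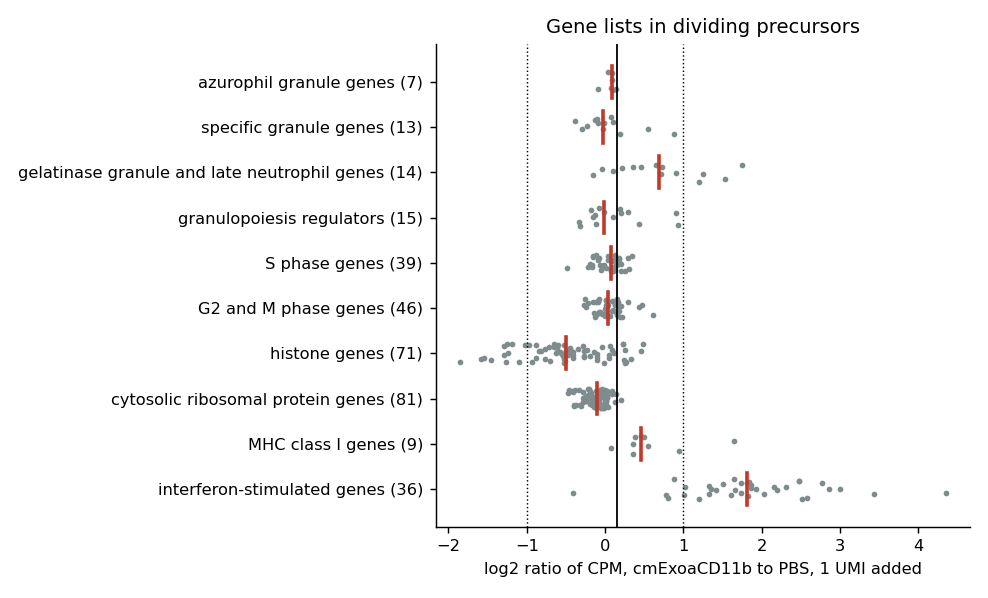
Log2 ratio of cmExoaCD11b to PBS in members for each gene (points) of the main gene lists, with the list median, and with the median over all genes (0.16) and the 2-fold limits as lines. Interferon-stimulated genes lie highest, with a median of 1.82, late neutrophil genes at 0.69 and histone genes at -0.50.

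Genes of inflammatory and suppressive neutrophils did not share a direction. Of 14 compared none was at least 2-fold higher, and the median log2 ratio was -0.07. The chemokine genes Cxcl3 and Ccl3 stood at 248 and 157 CPM and at 383 and 259, whereas Ccl4 stood at 152 and 223. Cd274, which encodes PD-L1, stood at 65.4 and 87.6 CPM.

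Of 8 S100 and alarmin genes 2 were at least 2-fold higher, beside 3.81% of all genes, S100a4 at 11.8 and 37.1 CPM and S100a10 at 18.5 and 51.7. The abundant S100a8 and S100a9 both had ratios of 0.85. The stefin genes Cstdc5 and Stfa1, inhibitors of cysteine proteases that are abundant in neutrophils, stood lower, at 154 and 33.6 CPM and at 149 and 72.2. Of 10 integrin and homing genes Cxcr2 and Ccr2 were past 2-fold, and Itgam had a ratio of 1.24 (1.19 to 1.29).

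Transcripts of other lineages were present in members and differed between the libraries. The 11 B and plasma cell markers summed to 94.8 CPM in PBS and 303 in cmExoaCD11b, led by Igkc at 65.4 and 251, with Ms4a1 at 0 in PBS. At least 10 UMIs of that list were found in 7 and 99 members. Empty droplets had 9116 and 17898 CPM of the list. The 12 T cell markers summed to 16.8 and 43.3 CPM, led by Cd3d, with at least 10 UMIs in 5 and 33 members. The 11 macrophage markers summed to 133 and 70.1 CPM, led by Apoe at 73.1 and 19.98, with at least 10 UMIs in 16 and 32 members. No member held more UMIs of any of these lists than of its neutrophil markers. The gate chose cells rich in neutrophil transcripts, so this comparison cannot tell whether members were mixed with other cells.

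Of the lists of other lineages, that of monocytes had the highest sum in both libraries, most of it from Ly6c2. NK cell markers summed to 4.14 and 15.1 CPM, led by Gzma, with Ncr1 at 0 in PBS. The 12 dendritic cell markers summed to 44.9 and 101 CPM, led by Cd74, with Siglech at 0 in both libraries. Erythroid markers summed to 16.8 and 54.2 CPM, led by Hbb-bs, and 57.0% of the treated UMIs of the list lay in 1 member. Mast cell, basophil and eosinophil markers summed to 11.97 and 58.7 CPM, led by Siglecf in PBS and Prss34 in cmExoaCD11b, with 80.2% of the treated UMIs of the list in 1 member and Epx at 0 in both. Epithelial and stromal markers summed to 53.9 and 14.5 CPM, led by Col1a1 in PBS and Pecam1 in cmExoaCD11b, with 76.1% of the PBS UMIs of the list in 1 member and Cdh5 at 0 in both. Monocyte markers summed to 1042 and 1127 CPM, with at least 10 UMIs in 396 and 703 members. Ly6c2, a gene that neutrophil precursors also express, gave 944 and 935 CPM of these sums, and 4 of the 9 genes were at least 2-fold higher, beside 3.81% of all genes, Ms4a4c, Ms4a6c, Ccr2 and Vcan.

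Leaving out the members with at least 10 UMIs of any of these lists other than the monocyte list removed 36 in PBS (7.53%) and 164 in cmExoaCD11b (18.8%). The share of members then differed 1.55-fold (1.38 to 1.75), and of 10061 genes 244 were at least 2-fold higher (2.43%) and 45 lower (0.447%), of which 214 and 32 were among the 410 and 74. In those cells 30 of 36 interferon-stimulated genes were higher, with a median log2 ratio of 1.64, and 4 of 14 late neutrophil genes were higher, with a median of 0.51. Of the histone genes 11 of 68 were lower, with a median of -0.48. The members left out were deeper, with medians of 31505.5 and 43441.5 UMIs against 24916.5 and 22556 in those kept.

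The 15 largest ratios came in part from single cells. Of these genes 6 drew over 50% of their treated UMIs from 1 member, among them the basophil protease gene Prss34 (99.0%), the immunoglobulin gene Ighg1 (74.7%), the mast cell protease gene Cpa3 (85.1%) and Retnla, with 0 UMIs in PBS and 58 in 3 treated members. Genes spread over more cells were AW011738, at 1.23 and 18.6 CPM in 12 and 193 members, Ifit3, and Ms4a4c, at 1.38 and 14.8 CPM in 10 and 79 members. Of the 15 smallest ratios 11 drew over 50% of their PBS UMIs from 1 member, among them the collagen genes Col1a2 (96.8%), Col3a1 (97.0%) and Col1a1 (92.4%). Pf4, which encodes a platelet chemokine, stood at 10.6 and 1.35 CPM with 24.6% of its PBS UMIs in 1 member, the lowest such share among these 15.

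Members were last set beside their non-dividing counterparts within each library, as a description, since the gate chose both on their counts. Of 9323 genes compared, 29.8% were at least 2-fold higher in members in both libraries and 4.35% lower. Outside the rule the largest differences were in genes of replication and mitosis and in azurophil genes. Cdk1, the mitotic kinase, stood at 185 CPM in members and 0.58 in non-dividing precursors of PBS, and at 155 and 1.17 in cmExoaCD11b. Prim1, a subunit of DNA primase, stood at 37.4 and 35.4 CPM in members and at 0 in non-dividing precursors of both libraries. Ctsg, cathepsin G, stood at 1017 and 1045 CPM in members against 3.19 and 7.58.

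By list, 38 of 39 S phase genes, 44 of 45 G2 and M phase genes and 6 of 7 azurophil genes were higher in members in both libraries. Of housekeeping lists, 73 of 81 ribosomal protein genes, 53 of 66 histone genes and 19 of 24 genes of the spliceosomal Sm and Lsm proteins were higher. Of 14 late neutrophil genes 11 were lower in members and none higher, with median log2 differences of -1.50 in PBS and -1.37 in cmExoaCD11b. Interferon-stimulated genes included none higher and 9 of 33 lower, with medians of -0.73 and -0.99.

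Against mature neutrophils, 31.4% of 9521 genes were at least 2-fold higher in members in both libraries and 14.5% lower. Of the interferon-stimulated genes 29 of 36 were lower in members, and of the suppressive and inflammatory genes 13 of 14. Il1b, the gene of interleukin-1 beta, stood at 379.8 and 439.6 CPM in members and at 6548 and 6221 in mature neutrophils. Against dividing T cells, of which there were 27 and 55, 6.58% of 9059 genes were higher in members in both libraries and 20.8% lower. Of the phase lists, none of 45 G2 and M phase genes differed 2-fold in both libraries, and of 39 S phase genes 1 was higher and 4 were lower in members. The neutrophil genes Cebpe, S100a8 and Ly6g were higher in members and the T cell genes Trac and Pdcd1 lower, in both libraries.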

How the data were processed

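Single-cell libraries were made with the 10x Genomics 3′ v3.1 kit from polyA RNA, 1 library per treatment. The values deposited are UMI counts of each gene in each barcode, as Cell Ranger gave them, without normalization and with empty droplets. Per the file headers the version was 7.1.0, while the paper's methods give another one, and the genome build is not given in the sources used here. There were 644248 barcodes with 67143628 UMIs in PBS and 723594 with 81288480 in cmExoaCD11b, of which 6904 and 7118 were filtered cells.

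The members, gene lists and alternatives were chosen with earlier results of these data known. Named genes were those of the rule and lists, the 15 with the largest and the 15 with the smallest ratios, the 10 most abundant and the 10 with the largest ratios to non-dividing precursors, and others were named after their values were seen. Some genes of these lists are not reported here. Doublets were not removed, since the automatic Scrublet threshold marked 0 cells, and removing the highest scores up to 0.8% per 1000 cells was an alternative. Free RNA was estimated from 10 genes of other lineages against barcodes with at most 100 UMIs, leaving out the 5% of members with most of these UMIs. Levels were UMIs summed over members, ratios had 1 UMI added, and intervals were exact 95% intervals for counting error. With 1 library per group no test was run. The computations were tested on simulated data and used Python 3.11.15, numpy 2.4.6, scipy 1.17.1, pandas 2.3.3, scanpy 1.11.5 and matplotlib 3.10.9.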

Additional observations from a re-analysis of the deposited data

Results flagged for a closer look

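Ifnb1, the gene of interferon beta, had log2 ratios of cmExoaCD11b to PBS of opposite sign in dividing and non-dividing precursors, 4.09 and -1.20. The difference was not tested. Dividing precursors had 3 UMIs in PBS and 131 in cmExoaCD11b, 75.6% of them in 1 of 21 members. With the highest member of each library left out, the log2 ratio was 2.51. Non-dividing precursors had 36 and 19 UMIs.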

How the results depend on the processing

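No paired analysis was possible because each treatment has 1 library and the pools are of different mice. The share ratio of 1.77 was above 1 under every alternative run, but its interval included 1 among precursors (1.12, 0.998 to 1.251) and among cycling cells (1.03, 0.922 to 1.16). It was, by an alternative chosen after seeing the data, 1.55 without members with 10 UMIs of another lineage. Counts of genes at least 2-fold higher (410) and lower (74) moved under some alternatives. When members were thinned to 1000 UMIs they were 76 and 15, of which 22 and 5 were among the 410 and 74. They were 164 and 34 in early members and 244 and 45 without other-lineage members. At 200 UMIs or more 190 were higher and 21 lower, and at 20 UMIs or more 164 were lower. With no filter the counts were 1410 and 1649. The interferon-stimulated median of 1.82 was 1.22 in early members and 0.84 when thinned, where 9 genes remained with a median of 1.01 at full depth. The azurophil median of 0.08 was -0.053 with members weighted equally, -0.076 when thinned, -0.078 by median of ratios, -0.12 in early and 0.44 in other members and -0.086 without other-lineage members. The specific granule median of -0.02 was -0.19 by median of ratios, 0.13 in early members and 0.084 without other-lineage members. The late neutrophil median of 0.69 was 0.54 with equal weights, 0.52 by median of ratios and 0.51 without other-lineage members. By median of ratios the S phase median was -0.081 and the G2 and M phase median -0.13, and the latter was 0.35 in early members. The early share of cmExoaCD11b was 6.99% with precursor genes at 2% or more. Among other lists, medians past 2-fold that changed sign were those of erythroid (-0.65), B and plasma cell (-0.23), dendritic cell (-0.45) and mast cell, basophil and eosinophil markers (-0.038) in early members, and of dendritic cell (-0.13), mast cell, basophil and eosinophil (-0.034) and epithelial and stromal markers (0.011) without other-lineage members. With free RNA subtracted, the log2 ratio of Ighg3 was -2.73. For these the cause was not tested. Of the remaining values, 271 of single genes and 75 of other lists moved by more than counting error or the set tolerance, and 2066 and 520 by less. Depth limits genes with few UMIs, and 1 pool per group hides the spread between mice.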
